A study of Mus musculus with 4 samples.

Results

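The Notch genes described here are 9 members of the pathway, namely the receptors Notch1, Notch2 and Notch3, the ligands Jag1, Jag2 and Dll1, and the target genes Hes1, Hey1 and Heyl. They were taken as all probe sets whose only annotated gene symbol is 1 of these names, which gave 16 of the 22690 probe sets of the array and 9 of the 12393 genes with a symbol of their own. Hair follicles were cut from dorsal skin of male mice at postnatal day 14 by laser capture, with no treatment, and their RNA was read on 1-colour arrays. The mutant group was homozygous for the Hr allele of the hairless Hos:HR-1 strain (HrHos/HrHos, 2 samples, replicates 2 and 3, called mutants below), and the control group was heterozygous for it (+/HrHos, 2 samples, replicates 3 and 4, called controls). Hr encodes a nuclear corepressor needed for hair cycling. All animals were N1 offspring of a Hos:HR-1 sire and an F1 dam from a cross of HR-1 with ICR, so the controls also carried a mutant allele and no mouse free of it was profiled. Each sample pooled 50 to 70 follicles, and the labels neither say which part of the follicle was cut nor tie an array to an animal. The p-values below thus rest only on the spread among these arrays, which may be technical.

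The labels of homozygous replicate 3 contradict each other. By title it is a mutant, by source name it bears the number 2, and by strain it is +/HrHos like the controls. The title was followed here, and differences are also given with this sample left out.

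Notch signalling works between neighbouring cells. A ligand of the Jagged or Delta family on a cell binds a Notch receptor on the next cell, proteases then release the intracellular domain of the receptor, and this domain joins the DNA-binding protein Rbpj in the nucleus to switch on repressor genes of the Hes and Hey families. In the hair follicle the pathway is known for its part in the differentiation of the hair shaft and inner root sheath cells that leave the matrix, and in vessels Notch3, Hey1 and Heyl are known from the smooth muscle and endothelial cells of the wall.

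No difference between genotypes passed the test for any of the 9 genes. Values are intensities scaled by the authors, tests were run on log2(intensity + 32) with limma, and every difference is homozygous minus heterozygous with its standard error (SE, n = 2 per group). A probe set was tested if its mean was among the upper 60% of the array, which held for 13 of the 16 probe sets and 8 of the 9 genes; Hey1 was below. Limma called 0 of the 13 at an adjusted p under 0.05, and 0 at an unadjusted p under 0.05, while over all 13576 tested probe sets it called 0 (0% of them) and 312 (2.3%) at these thresholds. The tested Notch probe sets had adjusted p-values of 1 and a smallest unadjusted p of 0.266. Their median difference was 0.18 against 0.015 over all tested probe sets, and 9 of the 13 lay above 0 against 51.7% of all tested. This median turned to -0.082 without homozygous replicate 3 and to -0.34 with that sample counted as a control, and was 0.033 without heterozygous replicate 4 and 0.31 without heterozygous replicate 3.

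**Figure D1:**
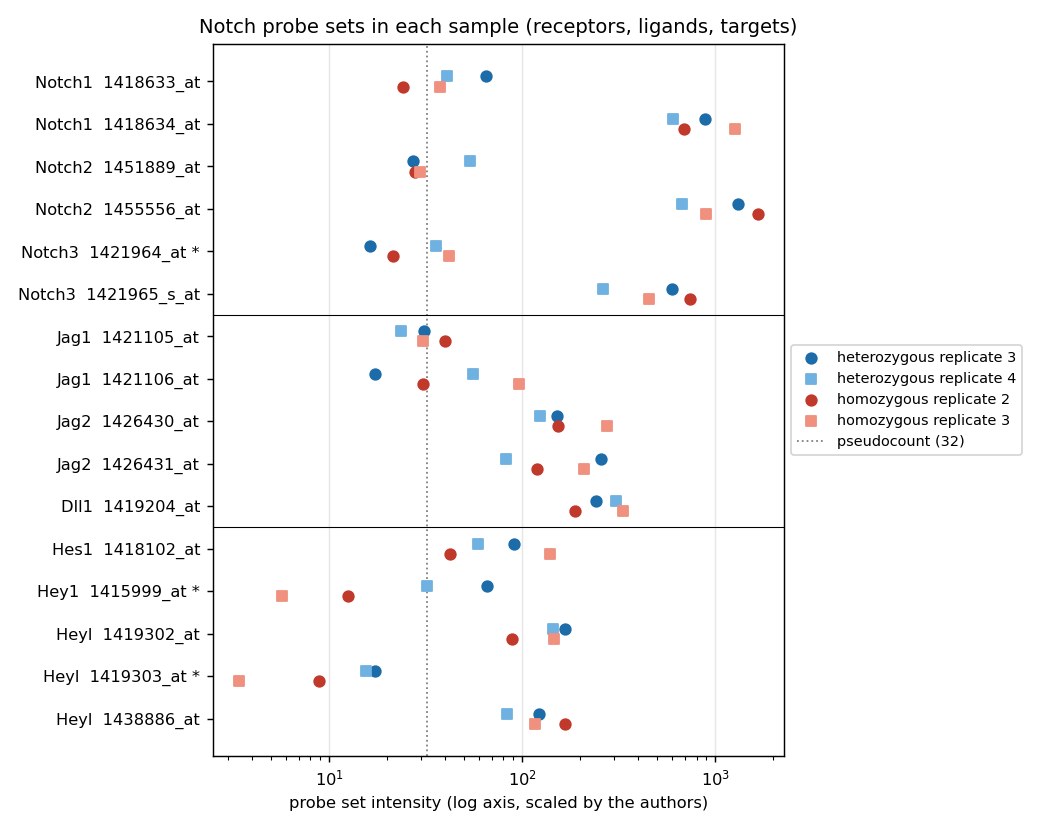
Intensity of each of the 16 Notch probe sets (rows, grouped into receptors, ligands and targets) in each of the 4 samples, on a log axis, with an asterisk at the 3 probe sets below the filter and a dotted line at the pseudocount of 32. Colours of the same genotype lie mixed with the other genotype in 12 rows, and the exceptions are the dim probe sets of Notch1, Hey1 and Heyl and the brighter probe set of Jag2.

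In 12 of the 16 probe sets the genotypes overlapped. In 1 of them the mutants were both higher, where this held for 14.6% of the 22626 probe sets that are not array controls. In 3 they were both lower, where this held for 14.5%. Together the genotypes were separate in 4 of 16, against 29% of the array. The difference between genotypes was larger than the range within either genotype in 3 of 16 probe sets, against 17.3% of all probe sets. Both shares are near those of the array as a whole.

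The receptors are described first. Notch1, the receptor best known from differentiating keratinocytes, was read by a bright and a dim probe set. The bright one (1418634_at) read 882 and 602 in controls 3 and 4, against 687 and 1261 in mutants 2 and 3. Homozygous replicate 3 was the highest sample, and the other mutant lay between the controls. Its difference was 0.34 ± 0.49 with a 95% interval from -0.75 to 1.43, and -0.082 without homozygous replicate 3.

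The dim probe set of Notch1 (1418633_at) went the other way. It read 65.2 and 41 in the controls and 24.2 and 37.5 in the mutants, so that both mutants were lower, by a difference of -0.43 ± 0.39 (limma adjusted p = 1). The same sign held without each sample in turn, with values from -0.64 to -0.22, and -0.58 without homozygous replicate 3. Averaging both probe sets gave -0.045 for the gene.

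Notch2 and Notch3, the other receptors, had bright probe sets with the same order of samples. Notch2 (1455556_at) read 1314 and 672 in the controls and 1655 and 898 in the mutants. Notch3 (1421965_s_at, where the suffix marks probes that can match more than 1 transcript) read 597 and 262 in the controls and 740.3 and 453 in the mutants. In both genes homozygous replicate 2 was highest, heterozygous replicate 3 next, then homozygous replicate 3, with heterozygous replicate 4 lowest, so each genotype had a high and a low sample.

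The difference was 0.36 ± 0.52 for Notch2, with an interval from -0.78 to 1.51. For Notch3 it was 0.51 ± 0.53, with an interval from -0.65 to 1.67. The samples of a genotype differed by more than this: heterozygous replicate 3 exceeded replicate 4 by 0.94 in Notch2 and by 1.10 in Notch3, and homozygous replicate 2 exceeded replicate 3 by 0.86 and 0.67. Without heterozygous replicate 4 the differences were -0.10 and -0.040, without homozygous replicate 3 they were 0.79 and 0.84, and without homozygous replicate 2 that of Notch2 was -0.065.

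The dim probe sets of these receptors gave no more. Notch2 (1451889_at) read 27.3 and 53.6 against 27.7 and 29.7, a difference of -0.23 ± 0.40, opposite in sign to the bright probe set, and -0.26 without homozygous replicate 3. Notch3 (1421964_at) was below the filter and read 16.2 and 35.8 against 21.4 and 42, with heterozygous replicate 3 lowest where it was second highest in the bright probe set. Its difference was 0.14, and -0.098 without homozygous replicate 3.

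**Figure D2:**
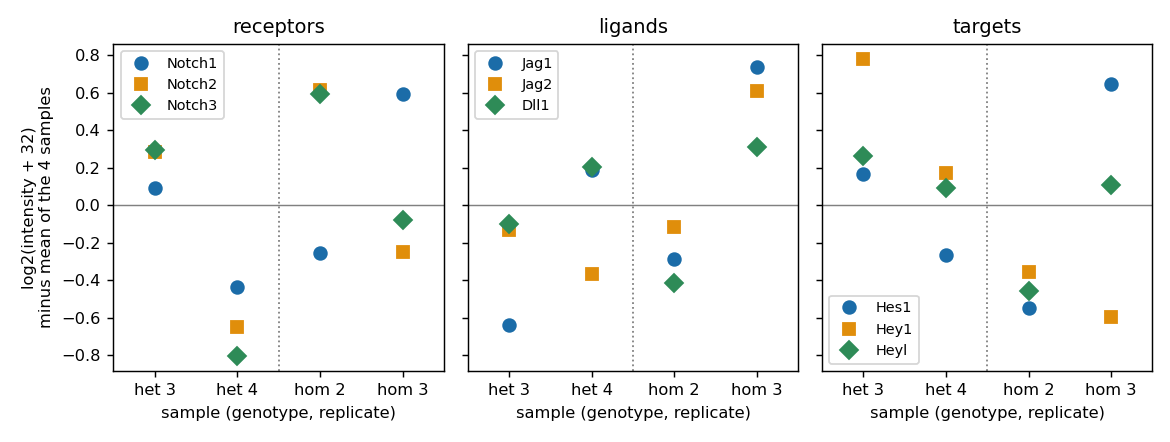
Value of the brightest probe set of each Notch gene in each sample, as log2(intensity + 32) minus the mean of the 4 samples, with heterozygous (het) samples left and homozygous (hom) samples right of the dotted line. Notch2 and Notch3 lie close together in all 4 samples, and of the 9 genes Hey1 and Jag2 are the ones with genotypes that do not overlap.

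Notch2 and Notch3 were the most alike of the 36 pairs of Notch genes, each taken at its brightest probe set. The root mean square difference of their log2 values, each centred on its mean over the 4 samples, was 0.114, against a median of 0.579 over the pairs. Notch1 was nearest to the ligand Jag2 (0.136) and the target Hes1 (0.177), 2 further genes with homozygous replicate 3 as the highest sample. These are descriptions of 4 samples, which share arrays and scaling.

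The sequences upstream of Notch2 and Notch3 are shown because these genes had the closest profiles. They are the 250 bases before each gene's start from RefSeq, build GRCm38.p6, for Notch2 at chr3:98013288-98013537 on the plus strand and for Notch3 at chr17:32166891-32167140 on the minus strand, written 5′ to 3′ along the gene. Capitals mark the N-box, CACNAG on either strand, a sequence known to be bound by Hes repressors.
Notch2: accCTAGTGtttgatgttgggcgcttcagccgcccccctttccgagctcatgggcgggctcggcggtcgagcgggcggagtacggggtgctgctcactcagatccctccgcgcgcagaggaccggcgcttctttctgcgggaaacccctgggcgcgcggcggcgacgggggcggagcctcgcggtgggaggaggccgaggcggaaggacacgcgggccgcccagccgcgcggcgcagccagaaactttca
Notch3: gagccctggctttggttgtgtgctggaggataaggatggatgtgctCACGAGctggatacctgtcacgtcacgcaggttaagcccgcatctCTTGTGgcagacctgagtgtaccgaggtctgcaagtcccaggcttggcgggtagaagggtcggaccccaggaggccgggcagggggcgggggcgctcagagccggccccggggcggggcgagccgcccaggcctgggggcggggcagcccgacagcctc
The N-box was found in 3 of the 7 upstream windows that the table holds for the members, in those of Notch1, Notch2 and Notch3, and in 36.7% of all 32851 windows of that length. In Notch2 it lies at position -247 from the start, in Notch3 at -204 and -159. The core TGGGAA, known from sites of Rbpj, was in 0 of the 7 windows and in 21.6% of all, and the E-box CACGTG, known from Hey proteins, in 0 of 7 and 6.02% of all, both searched on either strand. None of the marked letters overlaps another of these motifs, and a match is only a match of letters. The table used here has no entry for Hes1, Hey1 and Heyl.

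The ligands gave differences of either sign. Jag1, the ligand known from the hair matrix and the forming shaft, was dim in both probe sets. The brighter one (1421106_at) read 17.3 and 55.5 in the controls and 30.8 and 95.8 in the mutants. Homozygous replicate 3 was highest and heterozygous replicate 3 lowest, and the genotypes overlapped. The difference was 0.45 ± 0.46 (interval -0.57 to 1.47) and -0.065 without homozygous replicate 3. The other Jag1 probe set (1421105_at) read 31 and 23.5 against 39.9 and 30.8, a difference of 0.18 ± 0.39, and 0.28 without homozygous replicate 3.

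Jag2, the second Jagged ligand, held the only Notch probe set with both mutants above the controls. That probe set (1426430_at) read 151 and 124 in the controls and 153 and 274 in the mutants. Homozygous replicate 2 exceeded heterozygous replicate 3 only narrowly, and homozygous replicate 3 stood apart. The difference was 0.50 ± 0.42, with an interval from -0.44 to 1.43, an unadjusted limma p of 0.266 and an adjusted p of 1. Without homozygous replicate 3 it was 0.13.

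The other Jag2 probe set (1426431_at) read 255 and 82.9 in the controls and 119 and 208 in the mutants. Here the mutants lay between the controls, and the difference was 0.07 ± 0.50. It turned to -0.59 without heterozygous replicate 4 and to -0.26 without homozygous replicate 3.

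Dll1, a Delta ligand, had 1 probe set (1419204_at). It read 242 and 306 in the controls and 188 and 331 in the mutants, so that the mutants were the lowest and the highest of the 4. The difference was -0.11 ± 0.45, with an interval from -1.11 to 0.90. It was -0.47 without homozygous replicate 3 and 0.26 without homozygous replicate 2.

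**Figure D3:**
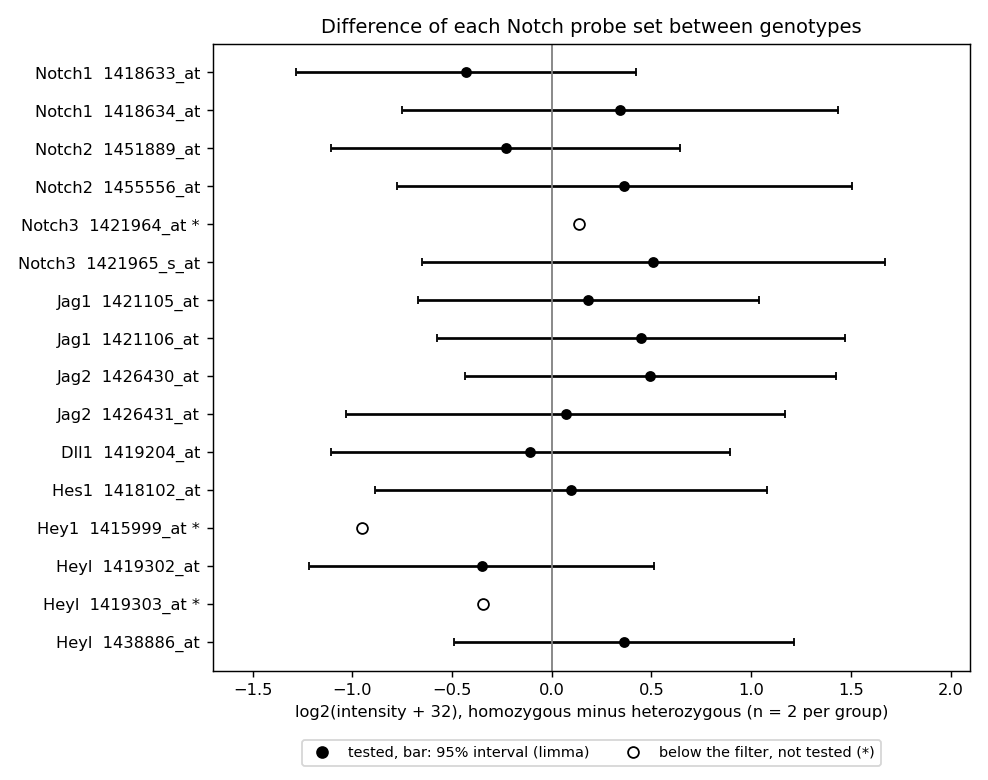
Difference between genotypes for each Notch probe set on the log2 scale, with the 95% interval from limma for the 13 tested probe sets and an open circle with no interval for the 3 below the filter (asterisk). Every interval includes 0, the lower bound nearest to it being -0.44 for Jag2, and the largest difference is the -0.95 of Hey1, which was not tested.

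The target genes are the readout of the pathway, and their differences did not point the same way. Hes1, a repressor switched on by Notch in many tissues, had 1 probe set (1418102_at). It read 90.2 and 58.7 in the controls and 42.5 and 139 in the mutants, again the lowest and the highest of the 4. The difference was 0.10 ± 0.44 (interval -0.88 to 1.08), -0.50 without homozygous replicate 3 and 0.70 without homozygous replicate 2.

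Hey1, a repressor of the Hey family, showed the largest difference among the members and was also 1 of the dimmest. Its probe set (1415999_at) read 65.8 and 32.1 in the controls and 12.6 and 5.7 in the mutants. Both mutants were lower than both controls, and both lay under the pseudocount of 32. The difference was -0.95, which is 1.93-fold higher in heterozygous follicles on the log2(intensity + 32) scale, and -2.30 with a pseudocount of 1. Its mean lay at the 34.9th percentile of the array, below the filter, so it was not tested in the fit; with no filter the unadjusted limma p was 0.029 and the adjusted p 1. The difference stayed below 0 without each sample in turn, from -1.25 to -0.64, and was -0.83 without homozygous replicate 3 and -0.47 with that sample grouped as heterozygous.

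Heyl, a related repressor, was read by 3 probe sets that did not point the same way. The brightest (1419302_at) read 166 and 144 in the controls and 88.5 and 146 in the mutants, where homozygous replicate 2 alone was low. The difference was -0.35 ± 0.39, -0.63 without homozygous replicate 3 and -0.069 without homozygous replicate 2. The second (1438886_at) read 122 and 83.6 against 167 and 116, with homozygous replicate 2 the highest sample, and a difference of 0.36 ± 0.39, or 0.58 without homozygous replicate 3. The third (1419303_at) was below the filter and read 17.2 and 15.6 against 8.9 and 3.4, with both mutants lower and a difference of -0.35, or -0.24 without homozygous replicate 3. Averaging the tested probe sets of Heyl gave 0.0057.

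Of the 6 genes with more than 1 probe set, 3 (Notch1, Notch2 and Heyl) had probe sets of opposite sign. Where a probe set lies along its transcript is not given in the sources used here. The RNA was amplified before labelling. For Gapdh the 3′ probe set exceeded the middle probe set 17.2-fold and 30.1-fold in the controls, against 15.4-fold and 14.8-fold in the mutants. For Actb the same ratio was 42.1 and 11.3 in the controls against 45.9 and 33.7 in the mutants, so the order of the samples differed between these genes. The spike-ins added before hybridization summed to 36220 and 45860 in the controls and to 20240 and 17400 in the mutants. Median intensities of the arrays ran from 43.5 to 52.6. The part of these differences between arrays in the Notch values was not tested.

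**Figure D4:**
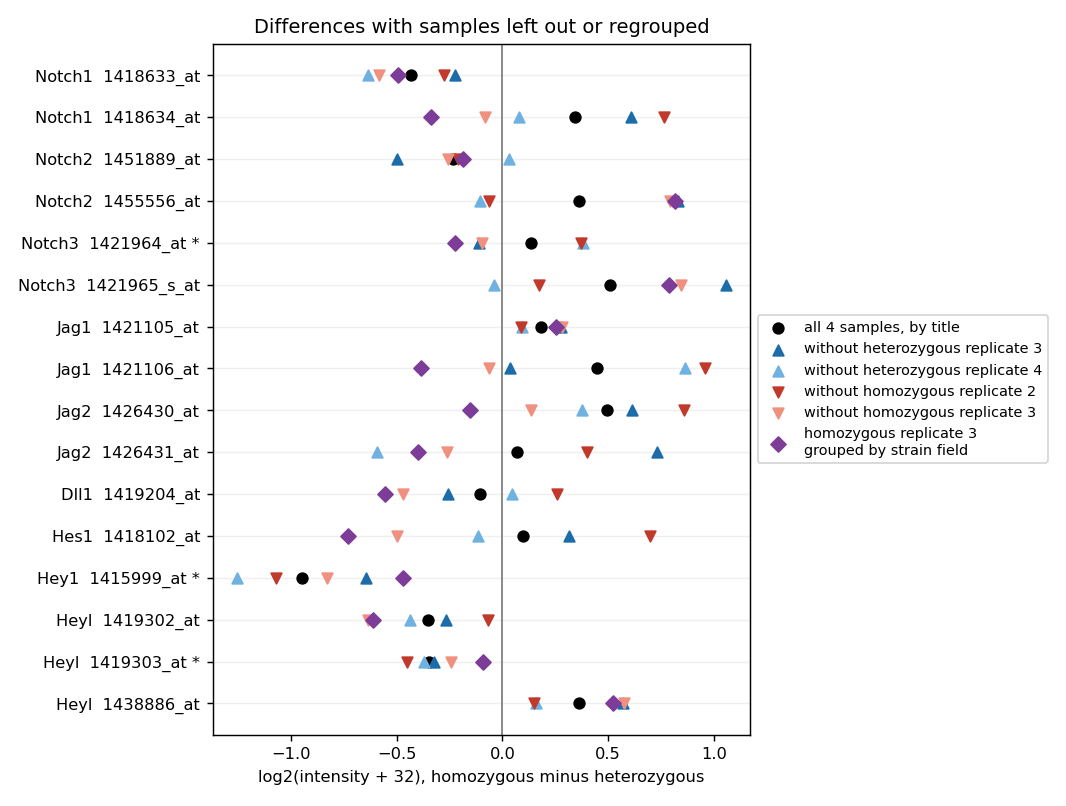
Difference between genotypes for each Notch probe set (log2 scale) with all samples, without each sample in turn, and with homozygous replicate 3 counted as a control, as its strain label has it. The symbols of a row lie on both sides of 0 in most rows. They stay below 0 for Hey1, the dim probe set of Notch1 and 2 of the 3 Heyl probe sets. They stay above 0 for the dimmer probe set of Jag1 and the remaining Heyl probe set.

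Sample and genotype were not aligned over the members. Homozygous replicate 3 was the highest sample in 6 of the 16 probe sets and heterozygous replicate 3 in 5, while heterozygous replicate 4 was the lowest in 7. The median of the centred log2 values over the 16 probe sets was 0.13 and -0.09 in the controls and -0.21 and 0.05 in the mutants. The range between the mutants had a median of 0.62 over the Notch probe sets, against 0.33 over all probe sets, and that between the controls 0.46 against 0.40. Over the tested probe sets alone, which leave out the dim part of the array, these medians were 0.37 for the mutants and 0.47 for the controls.

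Markers show what the samples held. Of 10 hair shaft and matrix markers measured, 9 were above the filter, which rests on the mean over the 4 samples. So were 7 of 7 inner root sheath and 9 of 9 outer root sheath and basal keratinocyte markers. By its definition the filter passes 60% of the probe sets that are not array controls. Follicle keratinocytes were thus captured, as the tissue label has it, with cells of other types. The summed intensity of the 10 hair shaft and matrix markers was 9826 and 10990 in the controls and 14660 and 17760 in the mutants. Both mutants were higher in 6 of the 10, where this held for 14.6% of all probe sets that are not array controls. Lef1, Hoxc13 and Dlx3 had lower means in the mutants. The sum of the 7 inner root sheath markers was lower in the mutants, at 22530 and 23690 against 30760 and 27340 in the controls. Its markers were mixed, as both mutants were lower in 3 and both higher in 2, Krt72 and Gata3. Over the array these shares were 14.5% and 14.6%. How these sums relate to the Notch values was not tested. The sum of the 11 fibroblast markers was 12420 and 10130 in the controls against 6157 and 6323 in the mutants, with 2 of the 11 higher in the mutants. The 5 adipocyte markers summed to 9322 and 8736 against 8744 and 4233. The 8 melanocyte markers summed to 1834 and 4398 against 3782 and 7130. In such pooled follicles fewer cells of a type and less RNA per cell cannot be told apart.

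Vessel markers matter for Notch3, Hey1 and Heyl. Of 11 markers of vascular mural and smooth muscle cells 6 were above the filter, and the summed intensity of all 11 was 3125 and 1901 in the controls and 1883 and 1824 in the mutants, of which Acta2, a smooth muscle actin also made by other contractile cells, gave the most. The dim ones were Myh11, Cnn1, Mcam, Abcc9 and Kcnj8. Of 12 endothelial markers 7 were above the filter, with sums over all 12 of 665 and 614 against 633 and 649, and Pecam1, Tie1, Emcn, Flt1 and Vwf were below it. No marker was listed at 0. The filter passes 60% of the array by definition, and 6 of 11 mural and 7 of 12 endothelial markers are near that share. These counts thus do not by themselves show that vessel cells were captured. The mural sum and Hey1 were both lower in the mutants, the sum by little against control 4, whereas Notch3 was highest in homozygous replicate 2; the part of vessel cells in these values was not tested.

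The rest of the pathway was taken from a list of 53 other genes grouped by role, of which 47 were on the array and 38 had a brightest probe set above the filter. Limma called 0 of the 38 in either direction, and 0 at an unadjusted p under 0.05, against 0% and 2.3% of all tested probe sets. Of the 38, 27 lay above 0 and 11 below, where 51.7% of all tested probe sets lay above 0. Over all 51 tested probe sets of these genes, 33 lay above 0. The median difference of the 38 was 0.053. This median was 0.18 without homozygous replicate 2, 0.032 without homozygous replicate 3 and 0.0081 without heterozygous replicate 4, and turned to -0.032 with homozygous replicate 3 counted as a control. In 11 of the 47 genes the genotypes did not overlap (7 above and 4 below), against 29% of all probe sets.

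Genes that activate ligands and receptors had the highest median of the other roles, 0.21 over 10 genes, 7 of them above 0, but -0.051 without homozygous replicate 3. Mib1, a ubiquitin ligase that makes ligands active, read 60.7 and 52.8 in the controls and 104 and 123 in the mutants. Both mutants were higher, by 0.71 ± 0.35 (limma adjusted p = 1), and by 0.61 without homozygous replicate 3. Psen2, a catalytic subunit of gamma-secretase, read 108 and 8.2 against 72.9 and 106, where heterozygous replicate 4 alone was low. The difference was 0.68 ± 0.53, and 0.49 without homozygous replicate 3. The sheddase gene Adam10 had a probe set (1428103_at) that was bright in all samples and differed by -0.08 ± 0.43, and by -0.36 without that sample. Its other probe sets, 1450104_at and 1450105_at, were below the filter and differed by 0.18 and -0.13 with all samples.

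Among the glycosylation enzymes of the receptor, 4 of 5 genes were tested at their brightest probe set. The fringe glycosyltransferases Mfng and Rfng differed by 0.15 ± 0.41 and 0.06 ± 0.45, and by -0.014 and 0.040 without homozygous replicate 3. A dimmer tested probe set of Rfng (1421160_a_at) read 13.3 and 31.5 against 52.9 and 66.8, with both mutants higher. Its difference was 0.77 ± 0.39, and 0.66 without homozygous replicate 3. Among 7 inhibitors and turnover genes the median was 0.04, and 0.048 without homozygous replicate 3. Dtx3, a Deltex family ubiquitin ligase, read 358 and 165 in the controls and 39.3 and 204 in the mutants, a difference of -1.10 ± 0.58 with homozygous replicate 2 alone low, and -1.96 without homozygous replicate 3. Fbxw7, which marks the intracellular domain for degradation, differed by -0.26 ± 0.56, and by -0.77 without that sample. A dimmer tested probe set of Fbxw7 (1424986_s_at) differed by 0.0082, and by -0.60 without homozygous replicate 3.

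In the nucleus, 12 genes of the Rbpj complex and its corepressors had a median of 0.13, 9 of them above 0, and of 0.16 without homozygous replicate 3. Spen, a corepressor that binds Rbpj, read 76.6 and 54.4 against 104.5 and 104, a difference of 0.49 ± 0.36 that was also 0.49 without homozygous replicate 3. The corepressor gene Ctbp1 differed by 0.40 ± 0.45, and by 0.28 without that sample. Rbpj itself, chosen here after its values were seen, had probe sets that separated the genotypes in opposite directions. The brighter one (1448957_at) read 125 and 135 in the controls and 119.7 and 111 in the mutants (-0.14 ± 0.37). The dimmer one (1418114_at) read 66.4 and 8.5 against 121.5 and 86.8 (1.10 ± 0.46), less than the 1.28 between its controls. It was the only 1 of 51 tested pathway probe sets with an unadjusted limma p under 0.05 (limma adjusted p = 1), against 2.3% of all tested probe sets. Without homozygous replicate 3 the brighter and the dimmer probe set differed between genotypes by -0.095 and 1.28.

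Other targets and ligands completed the list. Of 7 other target genes 5 were below the filter, Hes5 and Hey2 among them. Nrarp, a feedback inhibitor that Notch switches on, read 895 and 1313 in the controls and 1060 and 898 in the mutants, a difference of -0.15 ± 0.46, and -0.033 without homozygous replicate 3. Hes6, a family member known to oppose Hes1, differed by 0.29 ± 0.49, and by 0.76 without that sample. The other probe set of Hes6 (1452021_a_at) was below the filter and differed by -0.29, and by -0.015 without homozygous replicate 3. Of the ligands, Dlk1, a non-canonical family member, read 86.3 and 110 against 32.2 and 71.5, with both mutants lower and a difference of -0.67 ± 0.38 (limma adjusted p = 1), or -1.01 without homozygous replicate 3. Dll4, the ligand known from endothelium, differed by 0.07 ± 0.39, and by 0.36 without that sample.

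**Figure D5:**
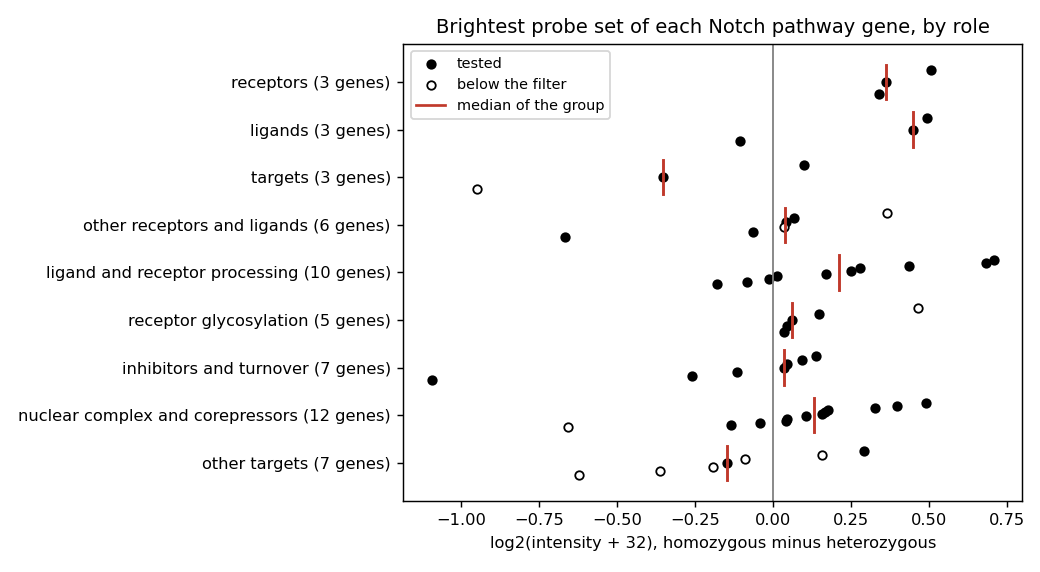
Difference between genotypes on the log2 scale for the brightest probe set of each of the 9 members and 47 other pathway genes, by role, with filled points for tested genes, open points for genes below the filter and a red line at each role's median. The medians lie between -0.35 for the member targets and 0.45 for the member ligands, each over 3 genes, and no point passed the test. Without homozygous replicate 3, which is not drawn, these medians were -0.63 and -0.065. The target median is that of the brightest Heyl probe set, and the second Heyl probe set differed by 0.36.

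By the same measure of likeness over 4 samples and 12445 other tested probe sets with a single gene symbol, the genes nearest to Notch1 were Csdc2 (root mean square difference 0.0286), Cic (0.0405) and Smc3 (0.045). Those nearest to Jag1 were Zcchc14 (0.0239), N4bp1 (0.0304) and Arrdc4 (0.035). Nearest to Hes1, out of 12446 probe sets, were Camk2g (0.0338), Dcaf8 (0.0377) and Tmem234 (0.0426). With so many candidates and 4 samples close profiles are common: 42, 17 and 31 probe sets lay within 0.1 of Notch1, Jag1 and Hes1.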

How the data were processed

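Cryosections of 8 micrometres were used for capture and 50 to 70 follicles pooled per sample, and amplified RNA was made into biotin-labelled cRNA, per the labels' protocols. The deposited values are linear intensities per probe set. From the values, the authors had brought each array to a common level (mean without the outer 2% on each side 165 on all 4 arrays), and this scaling was kept; the software and any correction for background are not given in these sources. Arrays have no read depth, and their number limits the precision: the median 95% interval reached 0.93 (log2), or 1.90-fold, to either side.

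Of 22690 probe sets 64 array controls were left out. The 60% with the highest mean of log2(intensity + 32), 13576 probe sets, went into limma 3.58.1 under R 4.3.3 (lmFit, eBayes with trend, two-sided, 2 residual degrees of freedom). Adjusted p-values are Benjamini-Hochberg values over all of these, with a threshold of 0.05. A fold on this scale understates the change of dim probe sets. The fit was tested on 20 simulated data sets with 200 changed probe sets each. Their errors were independent with the fitted spread, and the changes were set on the log2(intensity + 32) scale. They held no effect shared by an array and no sample of doubtful label, so recovery on the real arrays may differ. At the same threshold the fit recovered 1.7% of 2-fold, 33.3% of 4-fold and 86.6% of 8-fold changes, with 6.6 false calls on average. Changes of 2-fold would thus mostly be missed. Genes were named from the platform annotation, and all 16 Notch probe sets matched a current RefSeq gene. Samples were grouped by title. Every member was described; other pathway genes were named as the up to 2 per role with the smallest unadjusted p at the brightest probe set, and Adam10, Rbpj, Hes5 and Hey2 fall outside this rule. Likeness was taken for Notch1, Jag1 and Hes1. Members and lists were chosen with earlier results of these data known. Alternatives changed the pseudocount, filter, scaling, grouping, eBayes, probe set averaging and samples.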

Additional observations from a re-analysis of the deposited data

How the results depend on the processing

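No Notch member and no other pathway gene passed an adjusted p of 0.05 under any alternative run, and the smallest adjusted p of a member was 0.615. Leaving out a sample gave 0 to 51 calls over all probe sets, the 51 without heterozygous replicate 3, of which 0 were Notch members. Each such fit leaves 1 array alone in a group, assumed to vary as the remaining pair does, and both the 51 calls and the 0.615 come from fits with a lone control. No paired analysis was possible because the genotypes share only 1 replicate number.

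Of 152 member differences recomputed under alternatives other than dropping the filter and robust eBayes, 130 kept their sign and 22 reversed. The 130 include the probe set averages of Hes1, Dll1 and Notch3, which had 1 tested probe set each and so could not move. Dropping the filter and robust eBayes leave a mean difference as it is and are not counted. The pseudocounts of 1 and 64, quantile normalization and median centring reversed none of the 16 probe sets. Leaving out each sample in turn gave ranges on both sides of 0 in 9 probe sets: Hes1 from -0.50 to 0.70, Dll1 from -0.47 to 0.26, the bright probe set of Notch1 from -0.082 to 0.76, the bright and dim ones of Notch2 from -0.10 to 0.83 and from -0.50 to 0.033, those of Notch3 from -0.040 to 1.06 and from -0.11 to 0.38, the brighter one of Jag1 from -0.065 to 0.96 and the dimmer one of Jag2 from -0.59 to 0.73. Grouping homozygous replicate 3 by its strain field, which leaves a lone mutant whose spread is taken from the other samples, reversed 6: Hes1 to -0.73, the bright Notch1 to -0.34, the brighter Jag1 to -0.38, the dim Notch3 to -0.22, and the brighter and dimmer Jag2 to -0.15 and -0.40. Averaging probe sets turned Notch1 to -0.045 and Heyl to 0.0057. The cause of these reversals was not tested. The sign held under all alternatives run in 5 probe sets: Hey1, the dimmest and second of Heyl, the dimmer of Jag1 and the dim of Notch1.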
